A study of Homo sapiens with 6 samples.

Results

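Histone lysine-modifying enzymes were taken from the deposited table by gene symbol: the KDM, KMT, KAT, HDAC, SIRT and SETD families with a numbered name, and EZH1, EZH2, EED, SUZ12, EP300, CREBBP, EHMT1, EHMT2, NSD1, NSD2, NSD3 and DOT1L. This gave 72 of 62703 genes, 36 writers and 36 erasers, with 3 further symbols that match the pattern left out. The 6 libraries came from 786-O cells, an established human clear cell renal cell carcinoma line known to lack functional VHL protein. In 3 of them OGT, the enzyme that attaches O-GlcNAc to nuclear and cytosolic proteins, was overexpressed, and the other 3 were control cells that the labels call wild type. The sources used here do not give the vector, its promoter or whether the cells were clonal or pooled. No label says that the replicates were grown separately, so the tests see only how these libraries vary, which may be technical variation. The series title links OGT to HIF-2α, and the comparison made here asks how OGT overexpression altered transcripts of enzymes that place or remove histone marks.

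Writers transfer methyl or acetyl groups to lysines of histones, and erasers take them off. Methylation of H3K4 and acetylation are known as marks of active genes, H3K9 and H3K27 methylation as marks of silent ones. JmjC-domain demethylases need oxygen, iron and 2-oxoglutarate, sirtuins need NAD+, and the HDAC family uses zinc. Clear cell renal carcinomas are known for mutations in several chromatin regulators. OGT itself works in chromatin complexes and cleaves HCFC1, a scaffold of some H3K4 methyltransferases.

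The values are TPM (transcript abundance per length, scaled to a common library total), so levels of different genes can be compared. Library totals ran from 993935.5 to 996951.6, and the depth behind them is unknown. Each log2 change below is the OGT mean less the control mean of log2(TPM + 1), a scale that shrinks the changes of low genes. A gene was called at a Benjamini-Hochberg adjusted p below 0.05 in a limma fit over 12645 genes, those reaching 1 TPM in 3 or more libraries. Whether more RNA per cell or a shift in the kinds of cells lies behind a change cannot be told apart in bulk samples. OGT had 353, 353 and 271 TPM in the overexpressing libraries, against 23.1, 22.6 and 23.6 TPM in control libraries. The kidney lineage gene PAX8 had 184 to 209 TPM in OGT libraries and 125 to 143 TPM in control libraries, and ALB was listed at 0 in all 6. CA9, a usual marker of clear cell tumours, was at most 0.50 TPM in OGT libraries and 0.85 TPM in control libraries, so it was all but absent. The other kidney and clear cell genes looked at did not move together. KRT18 fell, with means of 464 TPM in OGT libraries and 593 TPM in control libraries. PAX2 was not called (10 and 9.27 TPM). CDH2 (48.7 and 19 TPM) and VIM (2772.9 and 1872.3 TPM) were higher in OGT libraries. The leukocyte gene PTPRC was listed at 0 in the OGT libraries and at 12.2 TPM in control replicate 1, against 0.06 and 0.07 TPM in the other control libraries. PECAM1, an endothelial gene, had 0.15 to 2.65 TPM in OGT libraries and 4.22 TPM in control replicate 1, its highest value. The fibroblast gene COL1A1 was at most 1.1 TPM in any library. All genes tested had a median log2 change of 0.30, and changes followed GC content and transcript length (Spearman correlations across genes, which are not independent replicates, of -0.472 and 0.386). A second fit, with the trends on GC and length taken out library by library, gives the corrected changes below. The median over all genes was then 0.03, while it was -0.09 after median centring and 0.02 after quantile normalization, so a change near 0.30 as deposited lies close to the middle of all genes.

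As deposited, 65.7% of tested writers and 43.8% of tested erasers were called higher with OGT overexpression. The share of erasers is near that of all genes (39.1%), and whether the shares differ was not tested. Of 67 members tested, 37 rose and 3 fell, while 39.1% of all genes tested were called higher and 9.7% lower (48.8% in all). Among 35 writers 23 rose and KAT5 fell, with a median log2 change of 0.64. Among 32 erasers 14 rose, and HDAC3 and SIRT2 fell, with a median of 0.43. The medians differed by 0.21, a difference for which no test was made. Every OGT library lay above every control library for 24 writers and 16 erasers and below for 2 writers and 2 erasers, against 46.2% and 12.4% of all genes.

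Under the other scalings fewer members were called higher. After the GC and length correction 5 writers and 4 erasers were higher, where 16% of all genes were, and 1 writer and 4 erasers were lower, where 12.8% were (28.8% called in all). The medians were then 0.12 for writers and 0.08 for erasers, against 0.03 for all genes. Median centring gave 7 writers higher and 2 lower, and 3 erasers higher and 10 lower, where 15.3% and 24.2% of all genes were called higher and lower (39.6% in all). Quantile normalization gave 7 and 2 for writers, and 5 and 6 for erasers, against 20.2% and 17.8% of all genes (38% in all). The filter can add higher calls, since 9 tested members reached it only through the OGT libraries. Of these, KAT2B, KAT6A, KMT2E, SUZ12 and KDM4D had no control library at 1 TPM or more, and SIRT1, KMT2C, KMT5B and SETD9 had 1 or 2. They hold 7 of the 37 higher calls (6 of 23 among writers, 1 of 14 among erasers), so counts that include them are descriptions only. With a filter on the mean over all 6 libraries (at least 5 TPM), 22 of 46 members were higher and 3 lower, 47.8% and 6.52%, beside 44.2% and 13.6% of all genes. By role, 58.3% of 24 writers and 36.4% of 22 erasers were higher there. A further 5 members were not tested. KDM4E and KDM4F were listed at 0 in every library. SIRT4 had 0.39, 0.54 and 0.41 TPM in OGT libraries and 0.32, 0.26 and 0 TPM in control libraries. KAT6B had 1.01, 0.92 and 0.82 TPM in OGT libraries, against 0.21, 0.36 and 0.22 TPM in controls. KDM7A, the last of them, is described with the demethylases.

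**Figure D1:**
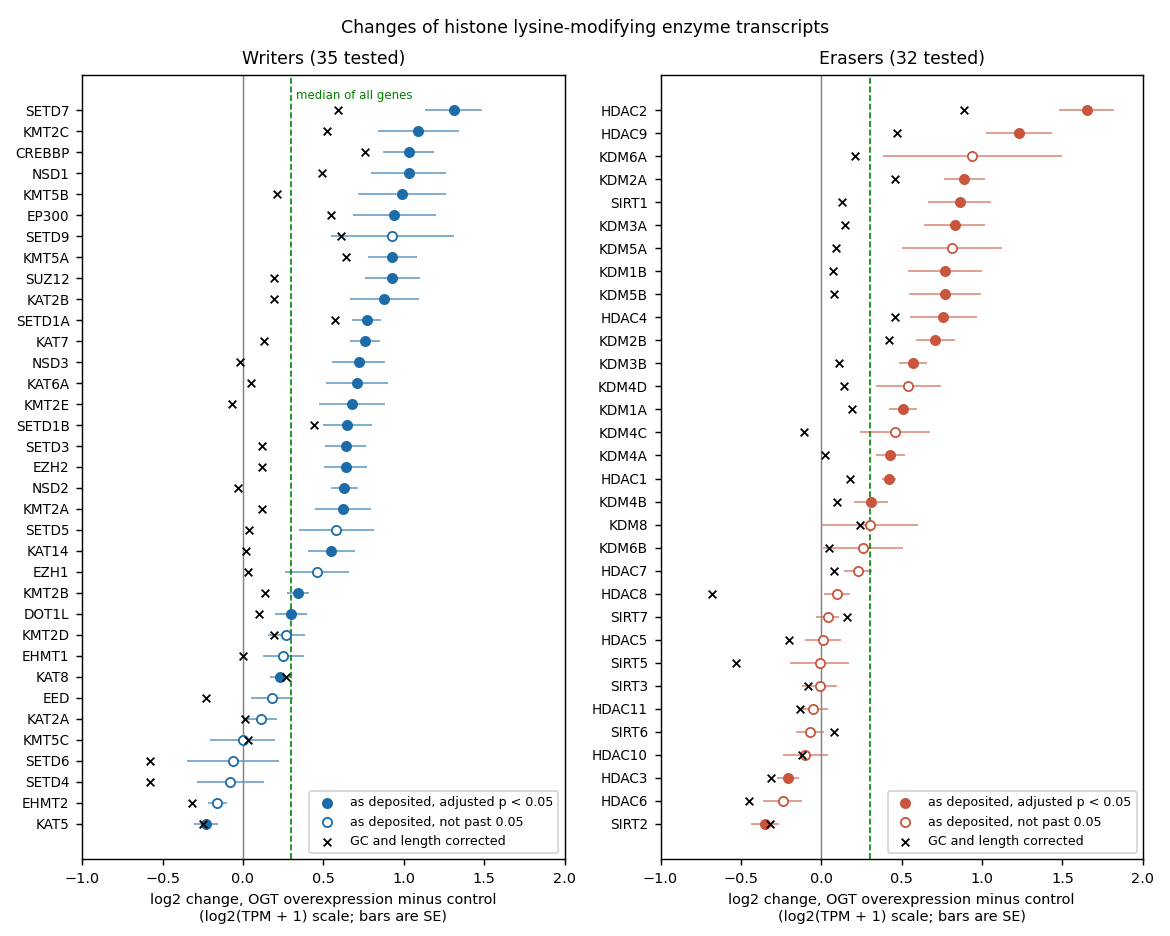
Log2 change (OGT overexpression minus control, x axis, log2(TPM + 1) scale, bars SE) of the 35 writers and 32 erasers tested, filled where called, with crosses for the corrected change. The green line is the median of all genes tested (0.30), and most crosses lie to the left of their circles.

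In 8 members, a summary made after the values were seen, the call and its direction were shared by the deposited values, median centring, quantile normalization and the correction. The 6 that rose were the writers CREBBP, SETD7, SETD1A and KMT5A and the erasers HDAC2 and KDM2A, and the 2 that fell were the erasers SIRT2 and HDAC3. Over all genes with a reference transcript, 9.68% were called higher and 7.35% lower under all 4. Among the 67 members tested, 6 higher and 2 lower do not exceed those shares.

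Both members of the p300 and CBP pair of acetyltransferases rose as deposited, where 39.1% of all genes were called higher. CREBBP (chromosome 16, 3725054 to 3880726, minus strand, GENCODE release 29 on GRCh38), which encodes the coactivator CBP, had 18.2, 14.6 and 12.5 TPM in OGT libraries and 6.91, 6.18 and 7.37 TPM in control libraries. The groups did not overlap (log2 change 1.03, SE 0.156, limma adjusted p = 0.00194, corrected change 0.76). EP300, encoding its paralogue p300, had 10.4, 10.9 and 9.31 TPM in OGT libraries and 7.77, 4.04 and 3.47 TPM in control libraries. Control replicate 1, the library with PTPRC, was the high control (log2 change 0.94, adjusted p = 0.0212, and 1.24 with adjusted p = 0.00185 without it). EP300 lost its call without OGT replicate 1 or 2 or control replicate 2 or 3 (adjusted p up to 0.0668), and the corrected change of 0.55 missed the threshold (adjusted p = 0.148).

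Among the KAT genes 5 of 7 tested were called higher and 1 lower as deposited, beside 39.1% and 9.7% of all genes, and 1 was higher under each of the other 3 scalings. KAT2B and KAT6A, 2 of those 5, passed the filter only through the OGT libraries. KAT7, which encodes the HBO1 acetyltransferase, had 24.5, 22.4 and 23.4 TPM in OGT libraries, against 12.3, 13.8 and 14.2 TPM in control libraries (log2 change 0.76, adjusted p = 8.14e-04, corrected 0.13). KAT2B, encoding PCAF, had 1.17, 1.30 and 1.43 TPM in OGT libraries and 0.14, 0.55 and 0.09 TPM in controls, near the filter. Its paralogue KAT2A, encoding the SAGA acetyltransferase GCN5, had 38.8, 38.1 and 33.6 TPM in OGT libraries and 32.7, 38.4 and 31.2 TPM in control libraries. Those ranges overlap, and KAT2A was not called (log2 change 0.11, adjusted p = 0.404). KAT5, encoding the NuA4 acetyltransferase TIP60, fell to 64.4, 56.8 and 64.3 TPM in OGT libraries, against 74.5, 67.6 and 76.2 TPM in controls (log2 change -0.23, adjusted p = 0.0412). Its corrected change of -0.25 was not called (adjusted p = 0.0518), while median centring gave -0.62. As deposited KAT5 lost its call in 5 of the 6 fits without a library, all but the one without control replicate 2 (adjusted p up to 0.124). KAT8, which acetylates H4K16, rose to 47.99, 45.7 and 48.4 TPM in OGT libraries, against 40.6, 41.3 and 39.2 TPM in controls. Its log2 change of 0.23 (adjusted p = 0.0195) was 0.27 after the correction (adjusted p = 0.0156) and -0.16 after median centring, and its call was lost without OGT replicate 1 or control replicate 3. KAT14 rose by a log2 change of 0.55, with a corrected change of 0.02. KAT6A had 1.97, 1.63 and 1.3 TPM in OGT libraries and 0.48, 0.66 and 0.66 TPM in controls.

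The deacetylases that oppose them divided by paralogue. HDAC2 (chromosome 6, 113933028 to 114011308, minus strand), a class I deacetylase, had 22.1, 23.4 and 18.7 TPM in OGT libraries, against 4.75, 6.34 and 7.58 TPM in control libraries. It was the largest rise among tested members (log2 change 1.65, SE 0.172, adjusted p = 4.36e-04, corrected 0.89). HDAC1, its partner in the same corepressor complexes, had the highest mean of all members, with 125, 125 and 129 TPM in OGT libraries and 94.0, 95.0 and 94.2 TPM in control libraries. The 3 values of each group lay close together (log2 change 0.42, SE 0.0431, adjusted p = 4.09e-04, corrected 0.18, adjusted p = 0.0204), and median centring left 0.03, not called. HDAC3 (chromosome 5, 141620876 to 141636870, minus strand), the catalytic subunit of the NCOR complex, fell to 63.7, 63.3 and 61.7 TPM in OGT libraries, against 67.5, 78.6 and 73.7 TPM in controls. This is a small change (log2 -0.21, adjusted p = 0.0371, corrected -0.31), and as deposited it lost its call in 5 of the 6 fits that left out a library, all but the one without control replicate 1.

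HDAC9, a class IIa deacetylase, had 6.56, 6.31 and 5.35 TPM in OGT libraries and 2.81, 1.83 and 1.51 TPM in controls (log2 change 1.23, adjusted p = 0.00294, corrected 0.47, not called). HDAC4 of the same class rose by a log2 change of 0.76 (corrected 0.46, not called). HDAC6, the mainly cytoplasmic tubulin deacetylase, had 24.3, 17.9 and 21.5 TPM in OGT libraries and 23.4, 25.7 and 26.4 TPM in control libraries. It was not called as deposited (log2 change -0.24, adjusted p = 0.143) but was after the correction (-0.45, adjusted p = 0.0316). HDAC8 had 23.4, 22.5 and 21.2 TPM in OGT libraries, against 21.2, 19.9 and 21.4 TPM in controls, a log2 change of 0.10 that turned to -0.68 after the correction (adjusted p = 8.72e-04). That value rests on a reference transcript of 5689 bases and 40.8% GC, which need not be the one expressed. HDAC5, HDAC7, HDAC10 and HDAC11 were not called as deposited, with log2 changes from -0.10 to 0.23. HDAC5, HDAC10 and HDAC11 were called lower after median centring (-0.38, -0.49 and -0.44), and HDAC10 and HDAC11 after quantile normalization (-0.42 and -0.37). Of 11 zinc-dependent deacetylases 4 were higher and 1 lower as deposited, beside 39.1% and 9.7% of all genes. Median centring gave 2 and 6, beside 15.3% and 24.2%, and quantile normalization 3 and 4, beside 20.2% and 17.8%.

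Of 6 sirtuins tested 1 was called higher, SIRT1, which passed the filter only through the OGT libraries, and 1 lower, beside 39.1% and 9.7% of all genes. After median centring SIRT2, SIRT3, SIRT6 and SIRT7 were called lower, 4 of 6, where 24.2% of all genes were. SIRT1, a nuclear deacetylase, had 2.10, 2.44 and 2.78 TPM in OGT libraries and 1.15, 0.66 and 0.88 TPM in control libraries (log2 change 0.86, adjusted p = 0.00988, corrected 0.13, not called). SIRT2 (chromosome 19, 38878555 to 38899862, minus strand), known as a cytoplasmic enzyme that reaches H4K16 in mitosis, fell to 39.3, 42.3 and 44.0 TPM in OGT libraries, against 48.8, 58.4 and 54.1 TPM in controls (log2 change -0.35, adjusted p = 0.0133, corrected -0.32). SIRT6, which acts on H3K9ac, had 40.6, 48.6 and 47.4 TPM in OGT libraries and 45.7, 48.3 and 49.8 TPM in control libraries, and the ranges overlap (log2 change -0.07, adjusted p = 0.502). SIRT6 was called lower after median centring (-0.46, adjusted p = 0.00737) and quantile normalization (-0.29, adjusted p = 0.0366). SIRT7, which acts on H3K18ac, had 43.0, 38.2 and 39.2 TPM in OGT libraries and 39.1, 38.1 and 39.3 TPM in controls (log2 change 0.04, adjusted p = 0.633). SIRT3 and SIRT5, mitochondrial enzymes counted here by name only, had log2 changes of -0.01 each. Summed over the family, sirtuins had 157, 162 and 164 TPM in OGT libraries and 166, 176 and 177 TPM in control libraries. Zinc-dependent deacetylases together had 389, 380 and 367 TPM in OGT libraries, against 324, 338 and 331 TPM in controls.

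Of 7 methyltransferases grouped under H3K4, the KMT2 and SETD1 genes, 6 were called higher as deposited, beside 39.1% of all genes. Within this group 1, SETD1A, was called higher under each of the other 3 scalings. SETD7, described below and also known for H3K4 monomethylation, was left out of this group and its ratio. It was called higher under all 4 scalings. KMT2C and KMT2E, 2 of those 6, passed the filter only through the OGT libraries. SETD1A (chromosome 16, 30957294 to 30984664, plus strand), a catalytic subunit of COMPASS, had 27.2, 29.5 and 25.3 TPM in OGT libraries and 14.8, 16.2 and 15.7 TPM in control libraries. With a transcript of 62.3% GC it is unlike most members that rose (log2 change 0.77, SE 0.0906, adjusted p = 6.79e-04, corrected 0.57). SETD1B had a log2 change of 0.65 (adjusted p = 0.0117), and its corrected change of 0.44 narrowly missed the threshold (adjusted p = 0.0526). KMT2C, which monomethylates H3K4 at enhancers, had 2.38, 3.72 and 4.48 TPM in OGT libraries and 1.55, 1.03 and 0.76 TPM in controls (log2 change 1.09, adjusted p = 0.0113, corrected 0.52, not called), and is uncertain because near-identical genomic copies of part of the gene can take its reads. KMT2D, its paralogue, had 39.8, 45.1 and 36.3 TPM in OGT libraries and 37.0, 33.8 and 29.2 TPM in control libraries. One OGT library fell within the control range, and KMT2D was not called (log2 change 0.27, adjusted p = 0.0912). KMT2A, encoding MLL1, had 8.04, 6.20 and 5.65 TPM in OGT libraries, against 3.73, 4.45 and 3.60 TPM in controls (log2 change 0.62, adjusted p = 0.0226, corrected 0.12). KMT2B rose by a log2 change of 0.34, which was -0.05 after median centring. KMT2E, whose SET domain is listed as inactive, had a log2 change of 0.68 and a corrected change of -0.07.

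H3K4 demethylases rose alongside, with 3 of 4 called higher as deposited, beside 39.1% of all genes, and 0 under each of the other 3 scalings. KDM1A, encoding LSD1, had 39.3, 37.2 and 42.8 TPM in OGT libraries and 27.9, 29.5 and 25.6 TPM in control libraries (log2 change 0.51, adjusted p = 0.00309, corrected 0.19, not called). KDM5B, a JmjC enzyme, had 6.70, 4.62 and 4.68 TPM in OGT libraries and 2.68, 2.01 and 3.51 TPM in controls (log2 change 0.77, adjusted p = 0.026, corrected 0.08). KDM1B, encoding LSD2, had 4.59, 3.89 and 3.85 TPM in OGT libraries, against 2.89, 1.30 and 1.98 TPM in controls (log2 change 0.77, adjusted p = 0.0292, corrected 0.07). KDM5A, at a log2 change of 0.81, was not called (adjusted p = 0.0682), although its groups did not overlap. The summed TPM of H3K4 writers over that of H3K4 erasers was 2.09, 2.52 and 2.01 in OGT libraries and 2.44, 2.57 and 2.26 in control libraries, and the groups overlap.

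**Figure D2:**
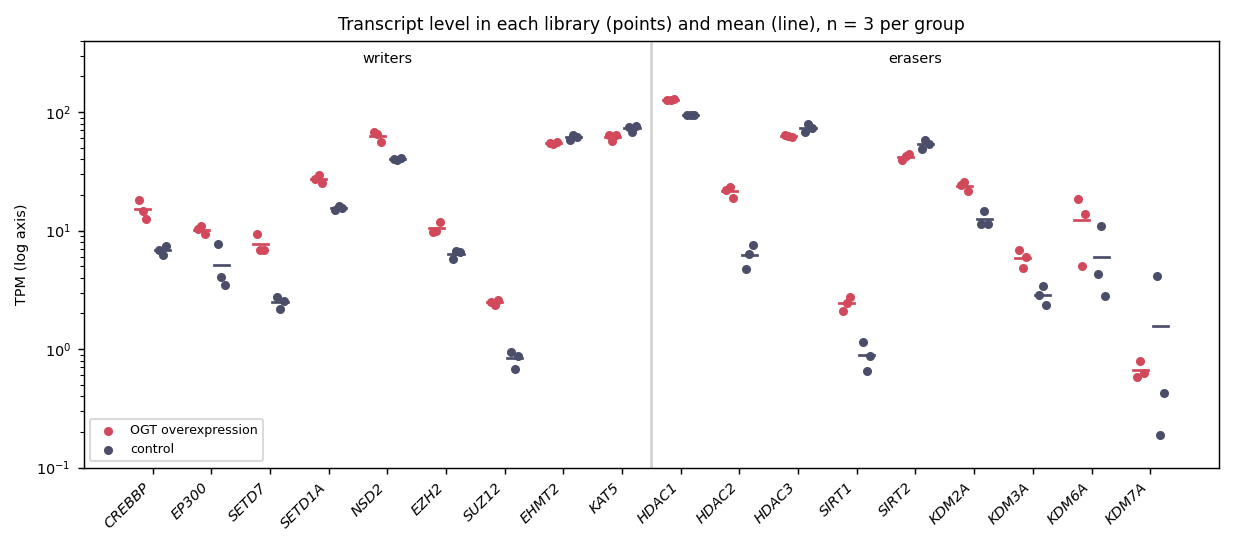
TPM (log axis) of 18 members in each of the 3 OGT overexpression and 3 control libraries, with the group mean as a line. HDAC3, SIRT2, KAT5 and EHMT2 are lower with OGT overexpression, and KDM6A and KDM7A overlap and spread widely within a group. All other plotted members are higher with no overlap. Of all genes tested, 46.2% lay above and 12.4% below in every OGT library.

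Of the marks compared by summed level, grouped after the values were seen, H3K9 was the one whose writer-to-eraser ratio did not overlap between groups. EHMT2, encoding the dimethyltransferase G9a, had 55.4, 53.7 and 55.4 TPM in OGT libraries and 58.4, 64.1 and 61.3 TPM in control libraries. All OGT values lie below all control values, with no call as deposited (log2 change -0.16, adjusted p = 0.0643) and calls after the correction (-0.32, adjusted p = 0.00886) and median centring (-0.55). EHMT1, its partner, had a log2 change of 0.25 and was not called (adjusted p = 0.142). Among the erasers of this mark 4 of 6 tested KDM3 and KDM4 genes rose as deposited and 0 fell, beside 39.1% and 9.7% of all genes. After quantile normalization 1 was called higher, and after median centring or the correction 0 were called. KDM3A, KDM3B, KDM4A and KDM4B had log2 changes of 0.83, 0.57, 0.43 and 0.31, and corrected changes of 0.15, 0.11, 0.02 and 0.10, none of them called. KDM4C and KDM4D were not called (adjusted p = 0.12 and 0.0609). KDM4D is uncertain, since KDM4E and KDM4F are close copies beside it. Summed H3K9 writers over summed H3K9 erasers came to 1.03, 1.06 and 1.16 in OGT libraries and 1.54, 1.71 and 1.68 in control libraries. This ratio does not depend on library scaling, but it takes in EHMT1 and EHMT2 alone as writers. With SUV39H1, SUV39H2, SETDB1 and SETDB2 added, summed writers had 123.3, 126.9 and 123.2 TPM in OGT libraries and 105.7, 119.5 and 118.7 TPM in control libraries, and the ratio was 1.72, 1.81 and 1.93 in OGT libraries and 2.27, 2.54 and 2.49 in control libraries. The ratio is not corrected for GC or length, and EHMT2 (60.9% GC) and KDM3A (44.8% GC) differ in composition.

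KDM3A and KDM4B are known from other work as hypoxia-inducible genes, and EPAS1, which encodes HIF-2α, had 64.5, 62.9 and 63.1 TPM in OGT libraries and 24.8, 23.9 and 23.7 TPM in control libraries. HIF1A averaged 56.7 TPM in OGT libraries and 28.6 TPM in control libraries, and ARNT averaged 9.84 TPM in OGT libraries and 6.38 TPM in control libraries. Neither was called after the correction (HIF1A 0.26, adjusted p = 0.236, and ARNT -0.03, adjusted p = 0.904), and ARNT lost its deposited call without OGT replicate 2 (adjusted p = 0.0654), while EPAS1 had a corrected change of 0.99 (adjusted p = 1.17e-04). KDM3A had 6.86, 4.82 and 6.01 TPM in OGT libraries, against 2.85, 3.44 and 2.35 TPM in controls (adjusted p = 0.0109). KDM4B had 13.95, 13.76 and 11.94 TPM in OGT libraries, against 10.62, 10.07 and 10.73 TPM in controls, and lost its call in 5 of the 6 fits without a library, all but the one without OGT replicate 3 (adjusted p up to 0.145). It turned to -0.08 after median centring. Their promoter windows are shown because they can hold the HIF core sequence, together with those, chosen after the values were seen, of HDAC2, the eraser with the largest rise, and HDAC3, an eraser that fell. Each runs from 250 bases before to 50 after the first start listed in RefSeq (GRCh38.p14), on the gene's strand, at chr2:86441121-86441420 (plus) for KDM3A, chr19:4968863-4969162 (plus) for KDM4B, chr6:113971099-113971398 (minus) for HDAC2 and chr5:141636800-141637099 (minus) for HDAC3. Capitals mark ACGTG or GCGTG on either strand.
KDM3A: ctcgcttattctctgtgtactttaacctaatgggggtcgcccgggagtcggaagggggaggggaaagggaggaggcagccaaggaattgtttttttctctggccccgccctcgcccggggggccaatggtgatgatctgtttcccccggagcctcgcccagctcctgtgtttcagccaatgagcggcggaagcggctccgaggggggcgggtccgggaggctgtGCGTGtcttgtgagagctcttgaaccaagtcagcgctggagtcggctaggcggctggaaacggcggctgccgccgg
KDM4B: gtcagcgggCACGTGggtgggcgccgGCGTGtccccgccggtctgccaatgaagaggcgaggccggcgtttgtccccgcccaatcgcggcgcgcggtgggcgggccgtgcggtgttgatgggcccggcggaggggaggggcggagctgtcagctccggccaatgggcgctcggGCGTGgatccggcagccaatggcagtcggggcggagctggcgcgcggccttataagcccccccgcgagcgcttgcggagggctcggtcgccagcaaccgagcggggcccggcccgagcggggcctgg
HDAC2: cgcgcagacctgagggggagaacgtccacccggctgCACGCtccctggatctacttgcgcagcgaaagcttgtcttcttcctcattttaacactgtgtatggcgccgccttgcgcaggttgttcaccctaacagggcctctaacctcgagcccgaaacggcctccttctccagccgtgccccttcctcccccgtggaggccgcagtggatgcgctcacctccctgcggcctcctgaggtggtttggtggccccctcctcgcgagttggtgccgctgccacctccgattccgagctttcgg
HDAC3: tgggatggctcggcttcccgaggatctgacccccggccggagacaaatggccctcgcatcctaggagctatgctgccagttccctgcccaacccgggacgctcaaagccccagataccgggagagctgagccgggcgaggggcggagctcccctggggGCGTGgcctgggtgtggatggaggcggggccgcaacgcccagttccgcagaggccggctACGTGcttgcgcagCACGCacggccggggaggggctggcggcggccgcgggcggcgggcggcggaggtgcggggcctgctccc

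KDM3A held 1 such match, GCGTG at position -26 from the start. KDM4B held 4 matches, 2 of which overlap on opposite strands in a palindromic CACGTG. HDAC2, which rose, held 1 and HDAC3, which fell, held 3. At least 1 match occurred in 44 of the 64 members with a listed window (68.8%), 67.7% of writers and 69.7% of erasers, and in 48.4% of all 35116 windows. Members' windows are richer in GC (median 66.8%, against 58.7% for all windows), and among windows of at least 60% GC the shares were 36 of 51 members (70.6%) and 64.9% of all. Matches occurred in 23 of 32 members called higher and 21 of the 32 others. A match is a description of these letters and not a binding site.

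Of the 4 core genes of PRC2, which methylates H3K27, EZH2 rose, and SUZ12 was called higher after passing the filter only through the OGT libraries. As deposited 39.1% of all genes tested were called higher. EZH2, the catalytic subunit of dividing cells, had 9.72, 9.88 and 11.8 TPM in OGT libraries and 5.72, 6.72 and 6.66 TPM in control libraries (log2 change 0.64, adjusted p = 0.00724, corrected 0.12, not called). SUZ12, a structural subunit, had 2.52, 2.35 and 2.61 TPM in OGT libraries, against 0.95, 0.68 and 0.88 TPM in controls (log2 change 0.93, adjusted p = 0.00458, corrected 0.19, not called). EED, which binds methylated H3K27, had 7.05, 8.95 and 8.75 TPM in OGT libraries and 7.18, 6.94 and 7.24 TPM in controls, and the groups overlap (log2 change 0.18, adjusted p = 0.297). EZH1 was not called either (adjusted p = 0.094). Summed PRC2 core genes had 29.3, 31.3 and 29.5 TPM in OGT libraries and 19.1, 20.4 and 21.6 TPM in control libraries.

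Neither H3K27 demethylase was called. KDM6A, encoding UTX, had 18.4, 5.04 and 13.7 TPM in OGT libraries and 4.34, 10.96 and 2.79 TPM in control libraries, with the highest SE of the tested members (log2 change 0.94, SE 0.558, adjusted p = 0.206). KDM6B, encoding JMJD3, had 6.08, 5.83 and 5.22 TPM in OGT libraries and 3.70, 3.57 and 7.24 TPM in controls (log2 change 0.26, adjusted p = 0.432). KDM7A, which acts on H3K9 and H3K27, had 0.58, 0.80 and 0.63 TPM in OGT libraries and 4.12, 0.19 and 0.43 TPM in controls. Its single high value was in control replicate 1, the library with 12.2 TPM of PTPRC and 4.22 TPM of PECAM1. The part of other cells in that value was not tested. KDM8 was not called (adjusted p = 0.443).

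Each member was counted under a single mark at most, and the tested KDM4 genes were counted under H3K9 alone. The H3K36 group thus held NSD1, NSD2 and NSD3 as writers and only KDM2A and KDM2B as erasers. As deposited 3 of 3 writers and 2 of 2 erasers of this group were called higher, beside 39.1% of all genes. After the correction 0 of 3 writers and 2 of 2 erasers were higher, beside 16%. NSD1 had 4.03, 5.30 and 3.83 TPM in OGT libraries and 1.52, 1.12 and 2.37 TPM in control libraries (log2 change 1.03, adjusted p = 0.00993, corrected 0.49, not called). NSD2 had log2 change 0.63 (adjusted p = 0.00102), with 67.6, 65.4 and 56.1 TPM in OGT libraries and 40.4, 39.1 and 40.9 TPM in control libraries, and corrected change -0.03. NSD3 had log2 change 0.72 and corrected change -0.02. KDM2A (chromosome 11, 67119269 to 67258087, plus strand), which removes H3K36 dimethylation, had 24.4, 25.7 and 21.6 TPM in OGT libraries and 11.4, 14.8 and 11.5 TPM in control libraries. Both it and KDM2B, a subunit of a variant Polycomb complex, stayed called after the correction (log2 changes 0.89 and 0.71, corrected 0.46 and 0.42, corrected adjusted p = 0.0366 and 0.0317), although KDM2B was not called after median centring or quantile normalization.

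Among the remaining methyltransferases SETD7 (chromosome 4, 139495941 to 139606699, minus strand), known for H3K4 monomethylation and for non-histone substrates, rose most of all writers. It had 9.37, 6.85 and 6.86 TPM in OGT libraries, against 2.78, 2.16 and 2.54 TPM in control libraries (log2 change 1.31, SE 0.179, adjusted p = 0.00125, corrected 0.59). KMT5A (chromosome 12, 123383773 to 123409358, plus strand), the H4K20 monomethyltransferase of dividing cells, had 13.3, 13.1 and 17.2 TPM in OGT libraries and 7.05, 8.15 and 6.20 TPM in controls (log2 change 0.93, adjusted p = 0.00273, corrected 0.64). KMT5B, which passed the filter only through the OGT libraries, had 3.41, 3.02 and 2.95 TPM in them and 0.71, 0.68 and 2.09 TPM in controls (log2 change 0.99, adjusted p = 0.0218, corrected 0.21, not called). KMT5C had 5.36, 7.08 and 4.92 TPM in OGT libraries, against 5.69, 4.55 and 7.2 TPM in controls (log2 change -0.00, adjusted p = 0.999). DOT1L, the H3K79 methyltransferase, had 12.7, 12.7 and 12.1 TPM in OGT libraries and 10.3, 10.0 and 9.51 TPM in controls (log2 change 0.30, adjusted p = 0.0387). That change equals the median of all genes, was 0.10 after the correction, and lost its call in each of the 6 fits without a library. SETD3, now known as an actin histidine methyltransferase, rose by a log2 change of 0.64 (corrected 0.12). SETD4, SETD5, SETD6 and SETD9 were not called. Leaving out 1 library also ended the calls of KDM1B, KDM5B, HDAC4, KAT14, KAT6A, KMT2A, KMT2E and KMT5B, each without OGT replicate 1 and some without others, with adjusted p up to 0.0919, 0.0883, 0.0732, 0.0747, 0.0646, 0.078, 0.0928 and 0.0675 in that order.

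Set against each other, the summed TPM of all 36 writers was 605, 593 and 565 in OGT libraries and 463, 463 and 459 in control libraries, and that of the 36 erasers was 744, 717 and 708 in OGT libraries and 608, 635 and 623 in control libraries. Writers over erasers came to 0.812, 0.828 and 0.798 in OGT libraries and 0.762, 0.729 and 0.736 in control libraries, so every OGT library lay above every control library. Abundant genes weigh most in these sums. The median log2(TPM + 1) of writers less that of erasers was -0.89, -0.78 and -0.99 in OGT libraries and -0.73, -0.96 and -0.75 in control libraries, which overlap. For methylation the ratio was 1.96, 2.26 and 2.07 in OGT libraries, below the 2.41, 2.37 and 2.46 of control libraries. The median log2 changes did not go that way, at 0.64 for methylation writers and 0.57 for methylation erasers, and 0.12 and 0.11 corrected. The ratios are not corrected for GC or length. For acetylation the ratio was 0.393, 0.365 and 0.376 in OGT libraries and 0.366, 0.344 and 0.346 in control libraries, which overlap. Because erasers of acetylation hold most of the eraser TPM, the overall ratio and the methylation ratio need not agree in direction.

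**Figure D3:**
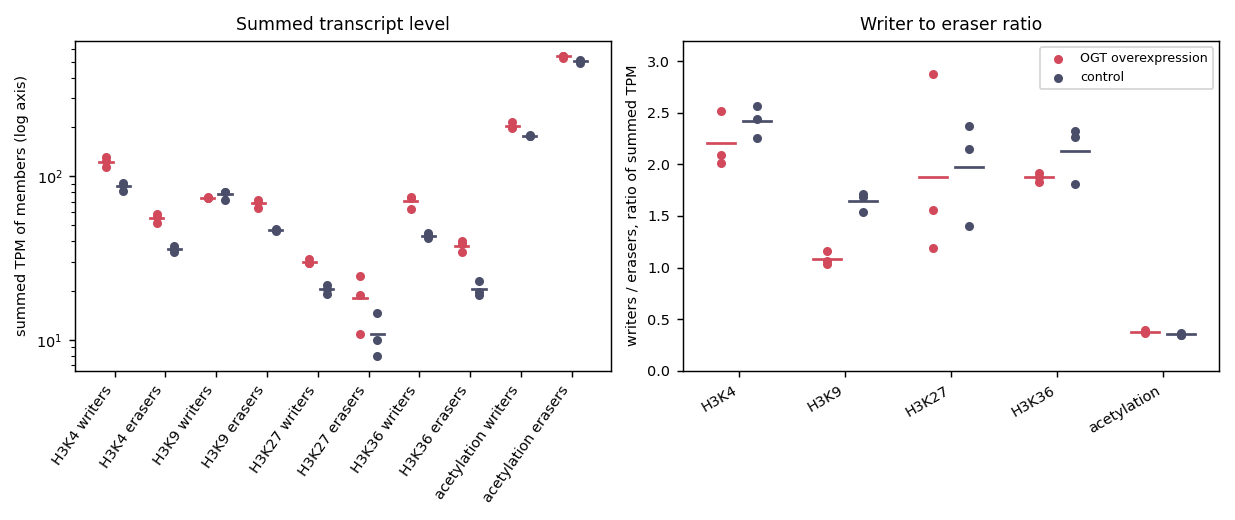
Left, summed TPM (log axis) of writers and erasers of each mark in each library, with means. Right, their ratio: for H3K9 it is 1.03 to 1.16 in OGT overexpression libraries and 1.54 to 1.71 in control libraries, and for H3K4, H3K27, H3K36 and acetylation the groups overlap.

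Writers and erasers also differed in sequence composition, which the rule for the set did not use. Tested writers had a median GC content of 47.2% and a median transcript length of 5837 bases, tested erasers 51.2% and 4428 bases, and all genes tested 50.1% and 3030 bases. Of 17 members at or below 45% GC, 14 rose, with a median log2 change of 0.86 beside 0.69 for all genes in that range. Among those above 60% GC 5 of 14 rose, with a median of 0.14 beside 0.00. Between those limits 18 of 36 rose and 3 fell, with a median of 0.48 beside 0.24. Over all ranges 39.1% of all genes tested were called higher and 9.7% lower. Their shares within each range were not counted, so these counts of members are descriptions only. Within the lowest range writers and erasers had medians of 0.91 and 0.83, within the middle range 0.58 and 0.43, and above 60% GC 0.32 and 0.03. KAT2B, KMT2C, KMT2E, KMT5B, SUZ12 and SIRT1 in the lowest range passed the filter only through the OGT libraries. So did KAT6A, KDM4D and SETD9 in the middle range. Counts and medians that include them are descriptions only.

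**Figure D4:**
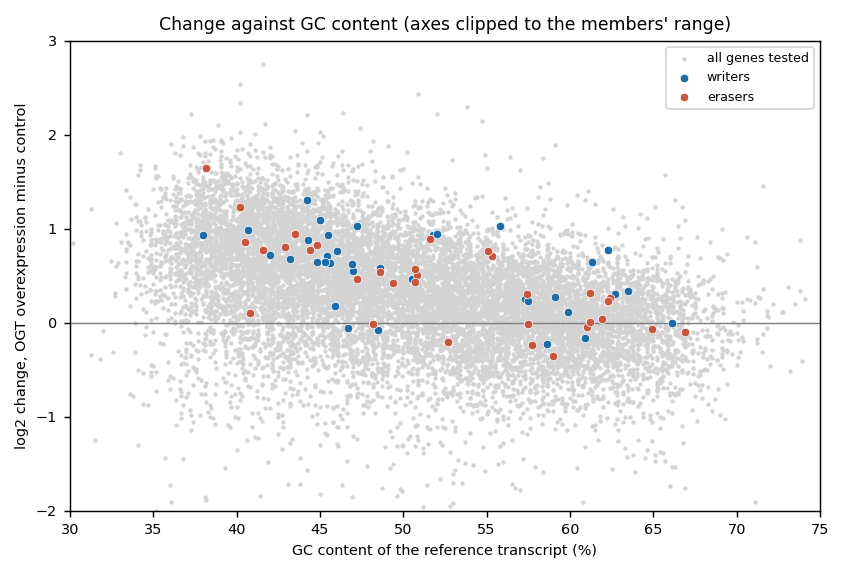
Log2 change (OGT overexpression minus control) against the GC content of the reference transcript, for all genes tested (grey) and for writers and erasers. Members follow the downward slope of the grey points, with SETD1A (62.3% GC, 0.77) and CREBBP (55.8% GC, 1.03) above most genes of their GC content; genes beyond the axes are not drawn.

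Partner proteins and related enzymes were counted in 7 lists of 114 genes, to be read beside the shares of all genes called higher and lower, 39.1% and 9.7% as deposited and 16% and 12.8% corrected. Of 13 tested COMPASS subunits 9 rose (69.2%) and 0 fell (median log2 change 0.50, and 0.11 corrected with 3 higher, 23.1%). HCFC1, the scaffold that OGT cleaves, had 55.02, 51.5 and 47.1 TPM in OGT libraries and 23.9, 30.02 and 30.2 TPM in control libraries (log2 change 0.85, adjusted p = 0.00105, corrected 0.65, called). Its companions WDR82 and ASH2L rose by 0.62 and 0.82 (corrected 0.11 and 0.42). Of 8 tested PRC2 accessory subunits 4 rose (50%) and 0 fell (median 0.65, corrected 0.06 with 1 higher, 12.5%). RBBP7, JARID2 and MTF2 rose by log2 changes of 0.74, 0.83 and 0.94 (corrected 0.28, called, and 0.36 and 0.22, not called). MTF2, at 0.56 to 0.86 TPM in control libraries, passed the filter only through the OGT libraries. List counts that include such genes are descriptions only.

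Acetyltransferase complex subunits had 18 higher (51.4%) and 5 lower (14.3%) of 35, with a median of 0.49. Among the higher, ZZZ3, EPC2 and JADE3 passed the filter only through the OGT libraries. Corrected, 5 were higher (14.3%) and 7 lower (20%), with a median of -0.00. TRRAP, a large scaffold of the SAGA and NuA4 complexes, had 26.4, 25.02 and 19.98 TPM in OGT libraries and 10.1, 11.2 and 11.9 TPM in control libraries (log2 change 1.04, corrected 0.71, called). MORF4L2 and BRPF3 rose by 1.23 and 0.88 (corrected 0.74 and 0.55, called). Corepressor subunits had 16 higher (66.7%) and 2 lower (8.33%) of 24, with a median of 0.48. Corrected, 5 were higher (20.8%) and 2 lower, with a median of 0.08. GATAD2A of the NuRD complex had a log2 change of 0.99. DNTTIP1, which binds HDAC1 and HDAC2, fell to 111, 108 and 103 TPM in OGT libraries, against 144, 147 and 151 TPM in controls (log2 change -0.45, adjusted p = 4.44e-04, corrected -0.32, called), and BRMS1 fell by 0.34 on the log2 scale.

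Bromodomain and HP1 readers rose in 4 of 6 cases (66.7%) and fell in 0 (median 0.60, corrected 0.25, with 3 higher, 50%). BRD2 and CBX3 rose by 0.60 and 0.91 (corrected 0.30 and 0.38). Lysine methyltransferases outside the naming rule had 5 higher (45.5%) and 1 lower (9.09%) of 11 with a median of 0.32, near the shares and the median of all genes (corrected median 0.02). SUV39H1, which places trimethylation on H3K9, and MECOM rose by log2 changes of 0.48 and 0.86 (corrected 0.36, called, and 0.12, not called). MECOM and ASH1L, both among the higher calls, passed the filter only through the OGT libraries. SMYD3 fell to 14.95, 16.7 and 15.98 TPM in OGT libraries, against 24.97, 26.3 and 26.6 TPM in controls (log2 change -0.68, corrected -0.83). Arginine methyltransferases had 2 higher and 2 lower of 7 (28.6% each), with a median of -0.09, and 1 higher (14.3%) and 4 lower (57.1%) corrected. PRMT3, among the higher as deposited, passed the filter only through the OGT libraries. PRMT1 had 379, 398 and 386 TPM in OGT libraries and 442, 482 and 467 TPM in control libraries (log2 change -0.26, adjusted p = 0.00329). PRMT2 fell by 0.58 on the log2 scale, and CARM1 rose by 0.39 with 0.00 after median centring.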

How the data were processed

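RNA sequencing of total RNA from 6 samples of 786-O cells used a TruSeq RNA kit, per the labels' protocols. The authors deposited 1 table of TPM per gene with human Ensembl identifiers; the unit was read from the near-equal column totals. GRCm38 and mm10, which are mouse builds, stand in the submitters' processing notes, while the identifiers are those of human genes. The sources used here give no aligner, counting tool, annotation or strand, so antisense reads cannot be told apart. Groups and replicate numbers came from the sample titles.

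Genes reaching 1 TPM in 3 or more libraries were fitted on log2(TPM + 1) using limma 3.58.1 (R 4.3.3; eBayes with trend and robust, two-sided, Benjamini-Hochberg over 12645 genes, threshold 0.05). GC, length and coordinates came from GENCODE release 29 and describe the longest transcript of a gene, taken among protein-coding ones if any exist (97.7% of tested genes). The correction regressed each library's deviations from gene means on natural splines of GC and log2 length with 4 degrees of freedom. KDM, HDAC and SIRT genes count as erasers and all others as writers, noncatalytic PRC2 subunits included. In the grouping by mark a member was counted under a single mark at most, even where its enzyme acts on more. Alternatives were a pseudocount of 0.1, other filters, median centring, quantile normalization, a replicate block and each library left out.

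The fit was tested on simulated data. A first version, with changes planted in any tested gene, missed the recovery set for it; the requirement was then applied to genes averaging at least 5 TPM, which it met, so it says nothing of lower genes, whose changes were recovered less often.

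Values in every sample are given for the 6 largest rises and falls among called writers and among called erasers, for 23 listed members of known roles, and for others singled out after their values were seen. From each partner list the 3 called genes with the smallest adjusted p are named. A result that this rule would name is not reported here. The members and lists were chosen with earlier results of these data known. The grouping by mark, the printed promoters, the members plotted by library, the summary over scalings, the H3K9 ratio with added writers and the motif share by window GC were chosen after the members' values were seen.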

Additional observations from a re-analysis of the deposited data

How the results depend on the processing

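The members' calls depended on scaling more than on the pseudocount. As deposited 37 members were called higher and 3 lower (writers 23 and 1, erasers 14 and 2). With no filter 1 member was lower (0 writers, 1 eraser). With a mean of at least 5 TPM, where 46 members were tested, 22 were higher (14 writers, 8 erasers). Quantile normalization gave 12 higher and 8 lower (writers 7 and 2, erasers 5 and 6), and median centring 10 and 12 (writers 7 and 2, erasers 3 and 10). The GC and length correction gave 9 and 5 (writers 5 and 1, erasers 4 and 4), and 4 and 5 with a replicate block (writers 2 and 2, erasers 2 and 3). The replicate block alone gave 32 members higher and 2 lower, with 1 eraser lower; same-numbered replicates did not deviate together (correlations -0.0194, 0.00264 and 0.0166). Leaving out each library gave 25 to 37 members higher and 1 to 3 lower, 15 to 24 writers higher and 0 to 1 lower, and 10 to 13 erasers higher and 1 to 2 lower, with 25 and 15 without OGT replicate 1. Shares of all genes called were counted as deposited, under the other scalings without a block, and with the mean filter of 5 TPM. For the remaining fits they were not counted, so the counts of members there are descriptions only. The difference in median change between writers and erasers, 0.21 as deposited, was 0.17 to 0.26 without a library, 0.36 with a mean filter of 5 TPM, and 0.04 after the correction, with or without the block.

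Some members turned sign while called in at least 1 of the fits compared. After median centring KAT8 was at -0.16, DOT1L at -0.09, KDM4B at -0.08, KMT2B at -0.05, HDAC5 at -0.38, HDAC8 at -0.29 and SIRT7 at -0.34. After quantile normalization DOT1L was at -0.08 and KDM4B at -0.07. After the correction, with or without the block, KMT2E was at -0.07, NSD2 at -0.03, NSD3 at -0.02 and HDAC8 at -0.68. The cause was not tested. Of 40 called members 39 were called the same way with a pseudocount of 0.1, 11 after the correction, and 26 to 35 without 1 library. Depth is unknown in TPM, so counting error at low values is too.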
